A study of Mus musculus with 10 samples.

Results

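The HOX cluster genes are the 39 genes of the mouse whose symbol is Hox, a letter from a to d and a number, out of 55487 genes in the count tables. The symbol alone decides which genes belong to the set, and they were ordered by the start positions in those tables (GRCm38/mm10). HOXA holds 11 of them on the minus strand of chromosome 6 (52155590 to 52260880, 105.3 kb), HOXB 10 on the plus strand of chromosome 11 (96194316 to 96368256, 173.9 kb), HOXC 9 on the plus strand of chromosome 15 (102921103 to 103036852, 115.8 kb) and HOXD 9 on the plus strand of chromosome 2 (74668310 to 74765142, 96.8 kb).

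Nuclear RNA was sequenced after rRNA depletion with a strand-specific kit in 5 stages of blood cell formation, with 2 libraries for each stage. The cells came from HM-1, a line of mouse ES cells that the authors call a targeting line. ES are undifferentiated cells kept in LIF and serum, and HB (hemangioblast) are FLK1+ cells taken with magnetic beads from embryoid bodies after 3 days in serum. The other stages were sorted by surface markers after FLK1+ cells had been replated in blast culture, whose medium, unlike that of ES and HB, held VEGF, IL-6 and D4T conditioned medium. HE1, the first stage of the hemogenic endothelium, was sorted as CD41- cells with KIT and TIE2, HE2, its second stage, as CD41+ cells with both, and HP, the hematopoietic progenitors, as KIT+ CD41+ cells that lacked TIE2. All stages come from 1 cell line in culture, the comparison addresses how expression moves from one stage to the next, and p-values measure the spread between the libraries of a stage.

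HOX proteins are transcription factors that bind DNA through a homeodomain, mostly together with PBX, MEIS or PKNOX proteins, and give cells their position along the body axis. Genes with the same number in different clusters are paralogues, and the order of the genes along a cluster matches the order in which they are switched on in the embryo, from the anterior (low-numbered) to the posterior (high-numbered) end. CDX factors and retinoic acid switch clusters on, the MLL (KMT2A) complex keeps them on and Polycomb proteins keep them silent. In blood, Hoxb4 is known for expanding stem and progenitor cells, Hoxa9 for a part in stem cells and leukaemia, and central HOXA genes as markers of the blood stem cells that arise in the embryo. In the text below, paralogue groups 1 to 3 are called anterior, 4 to 8 central and 9 to 13 posterior.

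The sequences around the start of 5 members are shown because these genes carry the stage patterns described below. These are a peak in HB (Hoxb1), a peak in HE1 with a later fall (Hoxb4), levels kept up to HP (Hoxd4 and Hoxd8) and the highest level in HP (Hoxd1). Each runs from 250 bases before to 50 bases after the RefSeq start (GRCm38.p6, plus strand), and 22 of the 39 members had such a sequence. Capitals mark matches on either strand to any of 4 motifs. The PBX-HOX motif was searched as TGATNNAT. The motif of CDX factors, which are homeodomain proteins as well, was searched as TTTATG. That of GATA factors, which act in many steps of blood formation, was searched as AGATAA. The TATA box, found before the start of some promoters, was searched as TATAAA.
Hoxb1, chr11:96365508-96365807: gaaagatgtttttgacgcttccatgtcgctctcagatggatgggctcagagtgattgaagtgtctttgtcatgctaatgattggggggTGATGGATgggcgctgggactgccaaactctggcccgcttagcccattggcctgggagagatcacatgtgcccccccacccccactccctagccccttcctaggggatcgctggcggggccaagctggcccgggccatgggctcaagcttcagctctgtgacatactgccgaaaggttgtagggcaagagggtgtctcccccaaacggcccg
Hoxb4, chr11:96318017-96318316: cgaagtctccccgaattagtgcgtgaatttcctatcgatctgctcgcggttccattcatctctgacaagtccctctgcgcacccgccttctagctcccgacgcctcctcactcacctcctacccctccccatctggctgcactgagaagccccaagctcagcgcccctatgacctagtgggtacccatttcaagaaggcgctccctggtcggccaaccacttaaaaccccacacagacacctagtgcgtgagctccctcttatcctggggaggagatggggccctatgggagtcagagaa
Hoxd4, chr2:74721728-74722027: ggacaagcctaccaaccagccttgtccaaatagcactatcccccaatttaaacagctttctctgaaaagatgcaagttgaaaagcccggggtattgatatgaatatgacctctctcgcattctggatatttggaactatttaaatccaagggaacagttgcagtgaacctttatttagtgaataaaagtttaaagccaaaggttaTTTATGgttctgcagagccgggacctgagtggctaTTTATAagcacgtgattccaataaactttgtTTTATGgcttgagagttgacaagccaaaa
Hoxd8, chr2:74704365-74704664: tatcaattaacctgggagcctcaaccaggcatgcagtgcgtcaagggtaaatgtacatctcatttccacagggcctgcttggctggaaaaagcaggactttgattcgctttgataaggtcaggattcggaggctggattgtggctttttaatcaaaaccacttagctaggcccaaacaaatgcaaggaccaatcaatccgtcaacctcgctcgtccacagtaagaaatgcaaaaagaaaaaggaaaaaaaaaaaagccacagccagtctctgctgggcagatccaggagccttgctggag
Hoxd1, chr2:74762730-74763029: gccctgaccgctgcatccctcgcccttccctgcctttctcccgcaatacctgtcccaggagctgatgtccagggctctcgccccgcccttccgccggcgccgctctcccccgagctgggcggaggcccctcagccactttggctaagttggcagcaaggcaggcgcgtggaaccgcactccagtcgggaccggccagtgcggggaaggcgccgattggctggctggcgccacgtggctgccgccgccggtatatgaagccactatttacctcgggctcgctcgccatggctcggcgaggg

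In the window of Hoxb1 there was 1 PBX-HOX match, which begins at position -162 from the start. Hoxd4 held 2 CDX-type matches, at -45 and 21, and 1 TATA match at -10 that lies on the minus strand and reads TTTATA here. No match to the 4 motifs was in the windows of Hoxb4, Hoxd8 and Hoxd1. Over the 24 windows of the 22 members, 4 held a PBX-HOX match (16.67%), 5 a CDX-type match (20.83%), 4 a TATA match (16.67%) and 0 a GATA match. In all 32851 promoters of the same table the shares were 8.85%, 11.85%, 13.62% and 11.18%. These matches describe the letters of the windows and carry no test.

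The clusters also hold miRNA genes. One of them, Mir615 in HOXC, is not shown, and the 5p forms of the other 5 fall into 2 seed families (capitals, bases 2 to 8, RefSeq on GRCm38.p6). They are shown because Mir196a-1 lies next to Hoxb9 and is among the genes inside the clusters that were called below, and because its seed is that of a miRNA known to pair with the Hoxb8 transcript.
miR-196a-5p, from Mir196a-1 in HOXB and Mir196a-2 in HOXC: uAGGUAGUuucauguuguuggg
miR-196b-5p, from Mir196b in HOXA: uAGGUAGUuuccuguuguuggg
miR-10a-5p, from Mir10a in HOXB: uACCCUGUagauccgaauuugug
miR-10b-5p, from Mir10b in HOXD: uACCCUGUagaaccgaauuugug
The libraries hold the precursor RNA of the nucleus, so that none of the mature forms was measured. Mir615 and Mir196b had 0 counts in all libraries, and of the others only Mir196a-1 had more than 4 counts in any library.

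Library totals were between 24920434 and 58782055 counts, of which the 39 members took 0.0011% in ES replicate 1 and at most 0.0135% in HE1 replicate 1. A count of 0 allows up to 3 counts, which is 0.0532 to 0.126 CPM (counts scaled to the size of the library by the TMM method). This covers counting error only. Several markers followed the stage labels. The summed level of the pluripotent markers Pou5f1, Nanog, Zfp42 and Esrrb was 1579 to 1649 CPM at ES and 72.4 to 91.5 at HB. Mesp1 and T were highest in HB, Cdh5 and Sox17 at HE1, and Spi1, Gata1 and Ptprc in HP. Others did not. Kit had 146 and 73.0 CPM at HE1, against 164 and 173 at ES and 73.3 and 69.3 at HB. Runx1 and Spi1 averaged 55.5 and 2.16 CPM at HE1, below their 79.2 and 4.78 at HB. Itga2b (CD41) was highest in HE2, with 487 CPM on average beside 384 in HP. The 2 libraries of HE1 differed from each other. Replicate 2 had 57.7 CPM of the pluripotent markers against 5.59 in replicate 1, 1630 against 829 of the mesenchyme and smooth muscle markers, 82.2 against 21.3 of the cardiac markers and 1734 against 2983 of the endothelial markers (Cdh5, Tek, Pecam1, Kit and Sox17). In HE2, the endothelial sum was 1892 in replicate 1 and 1330 in replicate 2, and that of the blood markers was 861 and 1111. In cells measured in bulk, fewer cells of a type and less RNA per cell cannot be told apart.

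The HOX members moved with these libraries. Of the members with 20 counts or more over the 2 libraries of HE1, 8 of 8 in HOXB and 6 of 6 in HOXD were higher in replicate 1, with median ratios of 2.55 and 2.70, whereas 0 of 3 in HOXC were. In HE2 all 14 such members were higher in replicate 1, with a median ratio of 2.30. Over all genes with 20 counts or more, 53.5% were higher in replicate 1 at HE1 and 50.9% in HE2, with median ratios of 1.03 and 1.01. HE1 and HE2 values are therefore given for each library, and the calls were made again without each library. The part of the other cell types in these differences was not tested.

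The members were expressed at low levels. A mean of 9 CPM or above was reached by 0 of 39 members in ES, HB, HE2 and HP and by 4 at HE1, which are Hoxb5, Hoxb4, Hoxb3 and Hoxb2, and only Hoxb4 reached it in both HE1 libraries. A mean of 1 CPM or above was reached by 3 members in ES, 10 at HB, 15 at HE1, 11 at HE2 and 8 at HP. The filter on low counts left 14 members out of the test. These are 6 of HOXA (Hoxa2 to Hoxa6 and Hoxa10), Hoxb13, 6 of HOXC (Hoxc4, Hoxc5, Hoxc6, Hoxc8, Hoxc9 and Hoxc11) and Hoxd12, and their highest mean was 0.740 CPM. Among the other 25, the mean level was highest in HE1 for 15, in ES for 5, in HE2 for 3, and in HB and HP for 1 each. For some members the libraries behind these means overlapped between stages. Hoxd8 and Hoxd4 had their highest mean in HE2, but HE1 replicate 1 (10.1 and 11.2 CPM) was above both HE2 libraries. The same count was not made over all genes.

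**Figure D1:**
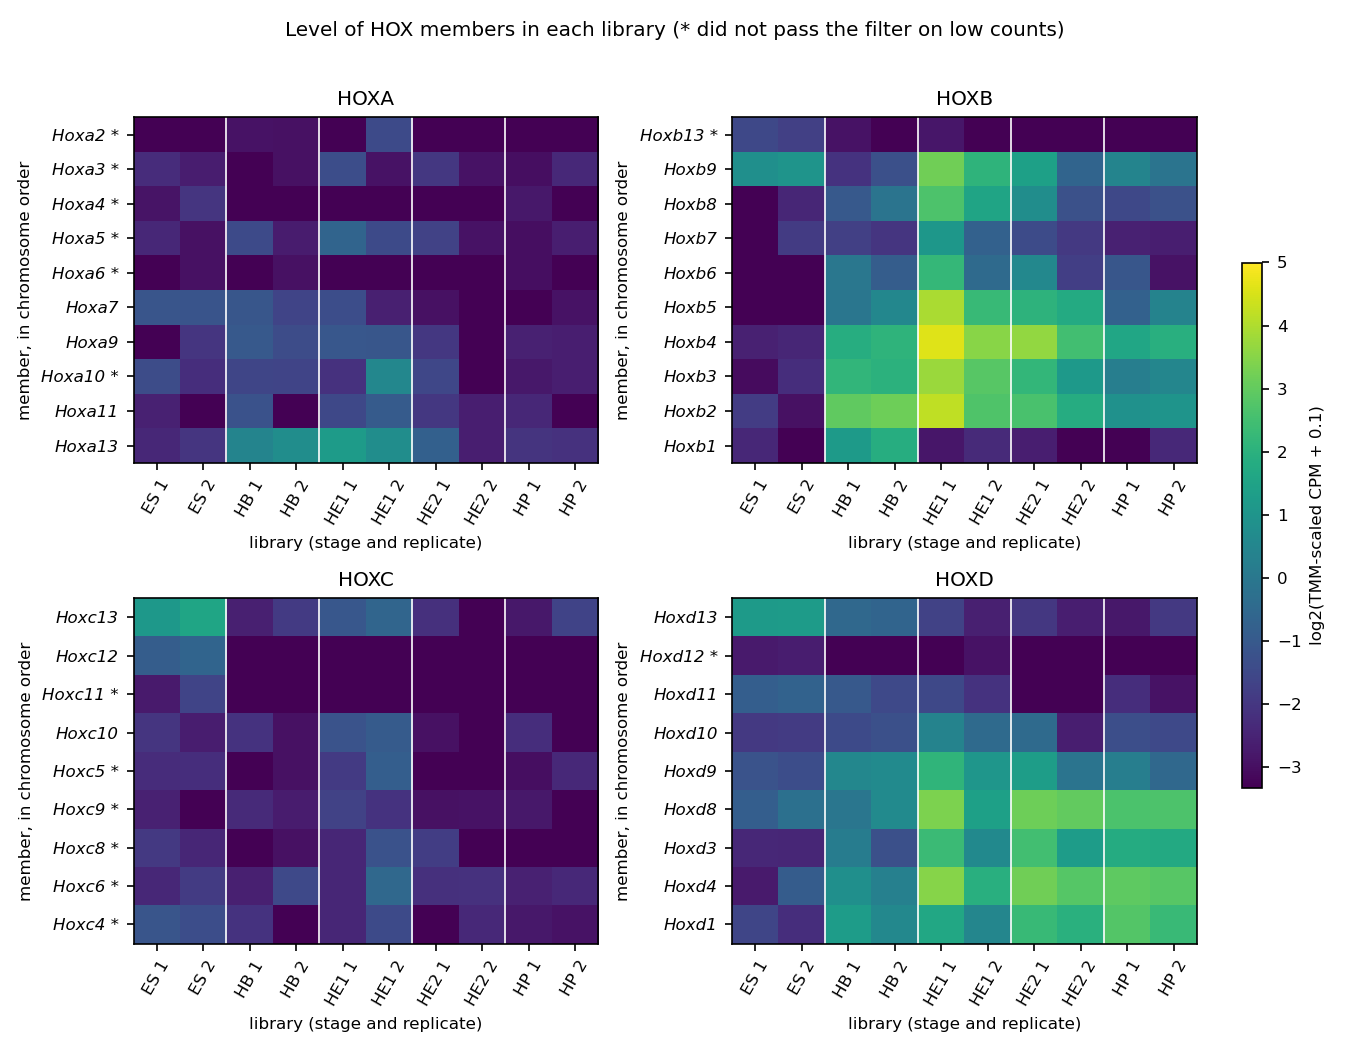
Level of 38 of the 39 HOX members in the 10 libraries, as log2 of TMM-scaled CPM plus 0.1, with the genes of each cluster from the lowest to the highest chromosome position and an asterisk on the 14 members that were not tested. Hoxb3, Hoxb5 and Hoxb7 to Hoxb9 are brightest in both HE1 libraries, Hoxb1 is bright in HB only, Hoxd8 to Hoxd1 stay bright up to HP, and most of HOXA and HOXC is dark.

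Calls were made with edgeR's quasi-likelihood test at a Benjamini-Hochberg adjusted p under 0.05 over the 22596 genes tested and a change of at least 2-fold. From ES to HB, 12 of the 25 members tested were called higher and 4 lower. Of all genes tested 28.8% were called, 11.5% higher and 17.3% lower. From HB to HE1, 8 were called higher and 1 lower, beside 12.7% and 8.19% of all genes, 20.9% in all. From HE1 to HE2, 0 were called higher and 2 lower (all genes, 3.26% and 5.39%, 8.65% in all). Between HE2 and HP no member was called, and neither was any of the 22596 genes (0%). From HE1 to HP, 0 were called higher and 10 lower (all genes, 5.35% and 11.2%, 16.5% in all). The last comparison skips HE2 and shares its HE1 libraries with the comparisons on either side.

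The calls were also counted by position in the cluster. Of the 8 anterior, 15 central and 16 posterior members, 6, 8 and 11 passed the filter on low counts. From ES to HB, 5 of the 6 anterior members tested rose and 0 fell, 5 of 8 central members rose and 0 fell, and 2 of 11 posterior members rose and 4 fell (all genes, 11.5% higher and 17.3% lower). From HB to HE1 the numbers that rose were 2, 5 and 1, and 1 anterior member (Hoxb1) fell (all genes, 12.7% and 8.19%). From HE1 to HP, 3 anterior, 4 central and 3 posterior members fell (all genes, 11.2%). Whether these classes differ was not tested.

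Levels of different members were added up only per length, as CPM per kb of exon, in each cluster and library. HOXB had 0.888 and 1.03 in the 2 ES libraries, 6.71 and 7.87 at HB, 32.8 and 13.0 at HE1, 11.5 and 5.35 at HE2, and 2.9 and 3.27 at HP. Both HE1 libraries were above every other library for HOXB. HOXD had 1.60 and 1.79 at ES, 3.49 and 2.89 at HB, 13.2 and 4.58 at HE1, 11.7 and 8.26 at HE2, and 9.90 and 8.52 at HP. Its HP libraries were at the level of HE2, and the HE1 libraries lay on either side of both stages. HOXA had 0.648 and 0.590 at ES, 1.48 and 1.24 at HB, 4.77 and 3.45 at HE1, 1.73 and 0.386 at HE2, and 0.405 and 0.341 at HP. HOXC was highest in ES (1.66 and 2.10) and had 0.216 and 0.231 at HB, 0.569 and 1.12 at HE1, 0.193 and 0.103 at HE2, and 0.151 and 0.173 at HP. In ES the sum over all clusters was shared between HOXC (36.4%), HOXD (32.9%), HOXB (18.6%) and HOXA (12.1%). HOXB took 61.3% of it in HE1, and HOXD took 71.7% in HP. Without Hoxd3, Hoxd4 and Hoxd11, whose exons are partly those of other genes, the HOXD sum was 6.33 at HE2 and 5.95 at HP.

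**Figure D2:**
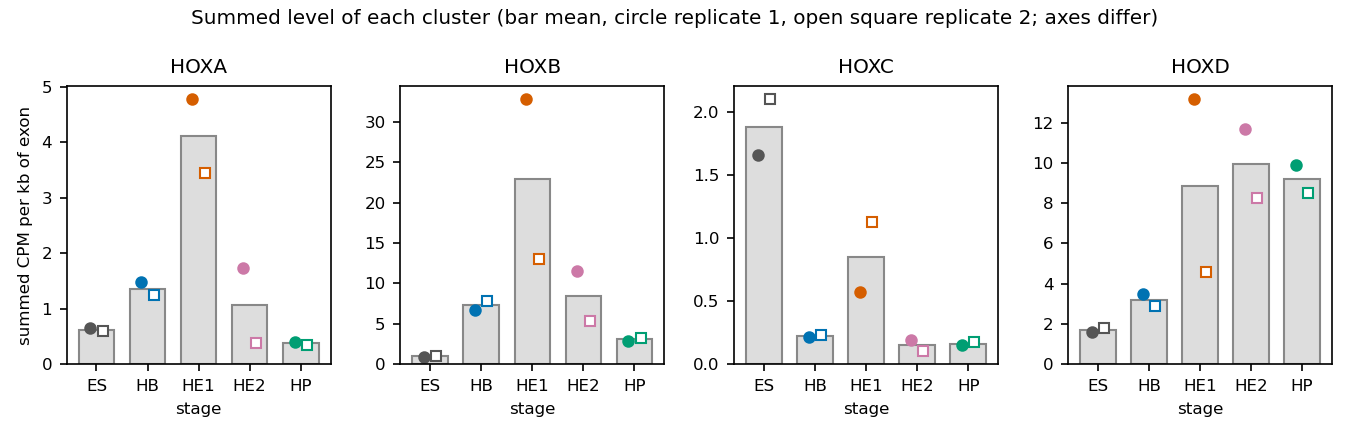
Summed CPM per kb of exon of each HOX cluster by stage, with the mean as a bar and replicates 1 and 2 as a circle and an open square, on axes that differ between clusters. HOXB is highest in HE1 (32.8 and 13.0) and low in HP (2.9 and 3.27), while HOXD has 9.90 and 8.52 at HP and 11.7 and 8.26 at HE2.

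HOXB, the cluster with the highest summed level in HB and HE1, was nearly silent in ES apart from its posterior end. Hoxb4 had 0.071 and 0.086 CPM at ES, 3.54 and 4.2 at HB, 24.2 and 11.3 at HE1, 12.4 and 5.52 at HE2, and 2.97 and 3.72 at HP. The ES, HB and HE1 libraries of Hoxb4 did not overlap, its HE2 libraries overlapped those of HE1, and its HP libraries were below HE1 and overlapped HB. Hoxb4 rose by 5.59 on the log2 scale from ES to HB (SE 0.63, adjusted p = 7.28e-05) and by 2.2 from HB to HE1 (SE 0.44, adjusted p = 0.0043), and fell by 2.41 from HE1 to HP (SE 0.45, adjusted p = 0.00373). It was the member with the highest level per kb in HE1 (6.93 ± 3.55, SD, n = 2) and, by the mean, in HE2 (3.5 ± 1.90), where Hoxd8 and Hoxd4 were above it in replicate 2, and the highest of HOXB in HP (1.30 ± 0.208).

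Hoxb5, the neighbour of Hoxb4, had 0 counts in both ES libraries, 0.860 and 1.35 CPM in HB, 15.3 and 4.79 at HE1, 4.05 and 3.30 at HE2, and 0.502 and 1.21 at HP. Its HB level was at least 15.9-fold higher than that of ES, with 3 counts in each ES library taken as the floor. It rose by 3.17 on the log2 scale from HB to HE1 (SE 0.63, adjusted p = 0.005) and fell by 3.57 from HE1 to HP (SE 0.64, adjusted p = 0.00421). Its HP libraries overlapped those of HB.

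Hoxb3, which has a part in hindbrain and neck patterning, had 0.018 and 0.115 CPM at ES, 4.40 and 4.0 at HB, 13.3 and 7.07 at HE1, 4.48 and 2.10 at HE2, and 1.07 and 1.30 at HP. It rose by 6.12 from ES to HB (log2, SE 0.71, adjusted p = 8.5e-05), and the change of 1.27 from HB to HE1 (SE 0.48, adjusted p = 0.0669) was not called although the HE1 libraries were both higher. It was called with limma-voom, DESeq2, no filter or only the 4 libraries compared, and without HE1 replicate 2 or either HE2 library. From HE1 to HP it fell by 3.10 (SE 0.52, adjusted p = 0.00238).

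Hoxb2, another hindbrain gene, was the member with the highest level per kb in HB, with 2.38 ± 0.206 CPM per kb. It had 0.177 and 0.029 CPM at ES, 7.80 and 8.82 at HB, 18.3 and 6.41 at HE1, 5.94 and 3.46 at HE2, and 1.76 and 1.88 at HP. Its HE1 libraries lay on both sides of HB, and the difference of 0.57 between these stages was not called (log2, SE 0.50, adjusted p = 0.405). The rise from ES to HB was 6.12 (SE 0.70, adjusted p = 7.71e-05), and it fell by 2.76 from HE1 to HP (SE 0.54, adjusted p = 0.00511). Its HP libraries lay below both HB libraries.

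Hoxb1, the most anterior HOXB gene, an early target of retinoic acid in the hindbrain, was singled out after its values were seen, since no other member tested had its highest mean in HB. It had 0.089 and 0 CPM at ES, 2.22 and 3.55 at HB, 0.042 and 0.099 at HE1, 0.061 and 0 at HE2, and 0 and 0.095 at HP. In counts this was 67 and 126 at HB, and at most 5 in each of the other 8 libraries. Hoxb1 rose by 5.70 from ES to HB (log2, SE 1.05, adjusted p = 0.00159) and fell by 5.24 from HB to HE1 (SE 1.07, adjusted p = 0.00473), and the HB libraries did not overlap any other stage.

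At the posterior end, Hoxb9 had 1.69 and 1.86 CPM at ES, 0.132 and 0.310 at HB, 9.04 and 4.13 at HE1, 2.53 and 0.540 at HE2, and 1.25 and 0.827 at HP. Hoxb9 was thus the HOXB member with the highest level per kb in ES (0.690 ± 0.0493), was lowest in HB and highest in HE1. From ES to HB its level fell by 2.96 (log2, SE 0.77, adjusted p = 0.0111), rose by 4.85 from HB to HE1 (SE 0.79, adjusted p = 0.00139), and fell by 2.65 from HE1 to HP (SE 0.68, adjusted p = 0.0179). Of its neighbours, Hoxb8 had 6.23 and 2.77 CPM in HE1 and Hoxb7 had 2.02 and 0.495, and both HE1 libraries were above all others. Hoxb6 had 4.54 and 0.628 CPM in HE1, of which the second lay below HE2 replicate 1 (1.37) and HB replicate 1 (0.893), so that its peak in HE1 rests on replicate 1. Hoxb8 was called higher from ES to HB, with 3 counts in ES and 41 at HB (ratio 19.0, exact 95% interval 6.05 to 95.7, which covers counting error only and not the spread between libraries), and again from HB to HE1, and lower from HE1 to HP. Hoxb6, with 0 counts in ES, was at least 9.64-fold higher in HB, and Hoxb7 was called only from HE1 to HP. Hoxb13, which lies apart from the rest of the cluster, had 14 and 7 counts in ES and at most 1 in any other library.

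From HE1 to HE2 no HOXB member was called (all genes, 5.39% lower). The 9 that were tested had a median log2 change of -1.62, against -0.08 for all genes tested, and 7 of them were lower at an unadjusted p under 0.05, as were 19.7% of all genes tested. For Hoxb4 this change was -0.98 (SE 0.42, adjusted p = 0.127) and for Hoxb3 -1.62 (SE 0.49, adjusted p = 0.052). From HE2 to HP the values were -1.43 for Hoxb4 (SE 0.44, adjusted p = 0.298) and -2.12 for Hoxb5 (SE 0.62, adjusted p = 0.288). From HE1 to HP 7 HOXB members fell (all genes, 11.2%), which are all from Hoxb2 to Hoxb9 except Hoxb6 (change -3.58, SE 1.23, adjusted p = 0.0612). Hoxb6 was called lower by DESeq2, with no filter, with only the 4 libraries compared, with a replicate block, and without HE1 replicate 2 or either HE2 library.

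In HOXD, Hoxd8, Hoxd4 and Hoxd1, at the anterior side of the cluster, had levels of 2.27, 2.46 and 3.10 CPM per kb on average in HP, where Hoxb4, the highest HOXB member, had 1.30. Each was above Hoxb4 in both HP libraries, whereas Hoxd3 (0.787 CPM per kb) was below it. Hoxd8 had 0.461 and 0.746 CPM at ES, 0.860 and 1.49 at HB, 10.1 and 2.58 at HE1, 8.93 and 7.87 at HE2, and 6.18 and 6.26 at HP. It rose by 2.42 on the log2 scale from HB to HE1 (SE 0.57, adjusted p = 0.00999), and the change from HE1 to HP was -0.02 (SE 0.53, adjusted p = 0.99). Both HP libraries of Hoxd8 lay between the 2 HE1 libraries. Hoxd8 was the HOXD member with the highest level per kb in HE2, with 3.06 ± 0.272.

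Hoxd4 had 0.053 and 0.430 CPM at ES, 1.69 and 1.13 at HB, 11.2 and 3.67 at HE1, 9.05 and 6.95 at HE2, and 7.48 and 6.99 at HP. It rose from ES to HB by 2.68 (log2, SE 0.77, adjusted p = 0.0175) and from HB to HE1 by 2.40 (SE 0.64, adjusted p = 0.0174), and the change from HE1 to HP was -0.03 (SE 0.59, adjusted p = 0.986). Hoxd3, given here because its exons overlap those of Hoxd4 and chosen after its values were seen, had 0.089 and 0.086 CPM at ES, 1.02 and 0.310 at HB, 5.05 and 1.45 at HE1, 5.45 and 2.32 at HE2, and 3.35 and 3.24 at HP. It was called in the same 2 comparisons, by 2.86 and 2.29, with a change of 0.03 from HE1 to HP (SE 0.65, adjusted p = 0.989). For Hoxd4 and Hoxd3 alike, both HP libraries lay below HE1 replicate 1 and above HE1 replicate 2, so that the small change depends on the mean of 2 unlike libraries. These 2 genes cannot be separated fully in the counts. Of the exon length of Hoxd4 52.3% and of that of Hoxd3 62.3% are also exons of another gene on the same strand, 388 bases of each being shared between the pair and most of the rest with Gm28230, and a fragment that lay on several genes was counted for each. Gm28230 itself had 10.4 and 2.58 CPM in HE1 and 6.18 and 6.20 at HP.

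Hoxd1, at the anterior end and free of such overlaps, had 0.231 and 0.115 CPM at ES, 2.31 and 1.38 at HB, 3.11 and 1.32 at HE1, 4.72 and 3.78 at HE2, and 6.71 and 4.83 at HP. Its HP libraries were above all the others, and it was the member with the highest level per kb in HP (3.10 ± 0.712). Hoxd1 rose by 3.33 from ES to HB (log2, SE 0.57, adjusted p = 0.00107). Its change of 1.39 from HE1 to HP (SE 0.48, adjusted p = 0.056) was not called, though limma-voom, DESeq2, the fit with no filter, the fit with a replicate block and the fit without HE1 replicate 1 called it higher.

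At the posterior end of HOXD, Hoxd13, a gene of digit and genital development, had 2.22 and 2.27 CPM at ES, 0.595 and 0.535 at HB, 0.210 and 0.066 at HE1, 0.152 and 0.063 at HE2, and 0.046 and 0.159 at HP. It fell by 1.98 from ES to HB (log2, SE 0.59, adjusted p = 0.0212). Hoxd9 rose from ES (0.337 and 0.287 CPM) to HB (1.36 and 1.49) and fell from HE1 (4.25 and 1.98) to HP (1.07 and 0.604). Hoxd11 had 26 and 18 counts in ES, 6 and 4 at HE1, and 0 in both HE2 libraries, and its call as lower in HE2 rests on those counts, for which no fold is given. Hoxd10 was in no comparison called in the fit of all libraries.

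**Figure D3:**
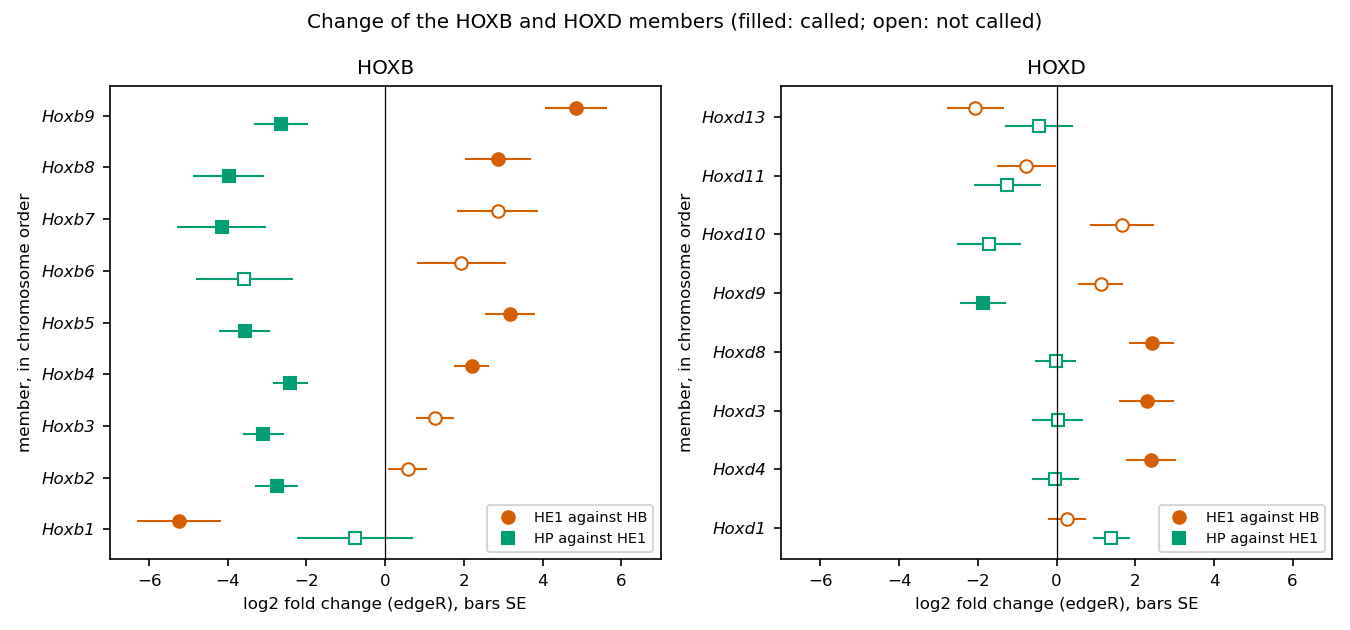
Log2 fold change with its SE (edgeR, n = 2 libraries in each stage) of the tested HOXB and HOXD members from HB to HE1 and from HE1 to HP, filled where called. Hoxb2 to Hoxb9 all lie to the left of 0 from HE1 to HP, whereas Hoxd8, Hoxd3 and Hoxd4 lie at -0.02, 0.03 and -0.03.

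HOXA was low in all stages, and 6 of its 11 members did not pass the filter on low counts. In HB the HOXA member with the highest level per kb was Hoxa13, at the posterior end, a gene of limb and hindgut development. It had 0.089 and 0.143 CPM at ES, 1.26 and 1.61 at HB, 2.27 and 1.59 at HE1, 0.488 and 0.063 at HE2, and 0.137 and 0.127 at HP. Hoxa13 rose by 3.63 from ES to HB (log2, SE 0.77, adjusted p = 0.00363), and fell by 2.78 from HE1 to HE2 (SE 0.72, adjusted p = 0.0346). From HE1 to HP it fell by 3.82 (SE 0.77, adjusted p = 0.00583). Other members of HOXA included Hoxa9 at 0.379 and 0.363 CPM in HE1 and 0.068 and 0.064 at HP, and Hoxa10, whose highest value was 41 counts in HE1 replicate 2 against 3 in replicate 1.

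HOXC was seen mainly in ES and at its posterior end. Hoxc13, a gene of hair and nail formation, had 2.06 and 2.9 CPM at ES, 0.066 and 0.169 at HB, 0.379 and 0.561 at HE1, 0.122 and 0 at HE2, and 0.046 and 0.223 at HP. With 1.01 ± 0.241 CPM per kb it was by the mean the highest of the 39 members in ES. In ES replicate 1 Hoxd13 (0.893) was above it (0.836). Hoxc13 fell by 4.32 on the log2 scale from ES to HB (SE 0.88, adjusted p = 0.0028). Hoxc12 had 25 and 19 counts in ES and 0 in each of the other 8 libraries, which makes its ES level at least 5.38-fold higher than that of HB. By the mean level per kb, the first HOXC member was Hoxc6 at HB and HE2 and Hoxc10 at HE1. Hoxc6 had 0.089 and 0.172 CPM at ES, 0.066 and 0.254 at HB, 0.084 and 0.595 at HE1, 0.122 and 0.127 at HE2, and 0.068 and 0.095 at HP. Hoxc10 had 0.142 and 0.057 CPM at ES, 0.132 and 0.028 at HB, 0.337 and 0.429 at HE1, 0.030 and 0 at HE2, and 0.114 and 0 at HP. In HE1 the level per kb of Hoxc10 (0.201 ± 0.0344) differed from that of Hoxc13 (0.191 ± 0.0526) by less than the spread between libraries. The higher HE1 value of Hoxc6 is that of replicate 2, which had more of the markers of other cell types.

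Each of the 10 libraries was left out in turn. A call lost in this way with its change as large as before is given as such, since a smaller set of libraries also gives a larger error. From ES to HB, the calls of Hoxa13, Hoxb5 to Hoxb1, Hoxc13, Hoxc12 and Hoxd1 were kept without any 1 library. The other 7 were lost without 1 or more libraries, at adjusted p between 0.0628 and 0.214. For Hoxd13 (without any of the ES and HB libraries), Hoxb6 (without either ES library or HB replicate 1) and Hoxd9 (without either ES library or HB replicate 2) the log2 change stayed between -2.04 and -1.91, 7.04 and 7.97, and 2.09 and 2.31. Hoxb9 was lost without HB replicate 1, at -2.48. Hoxd3 was lost without either ES library at 2.89 and 2.86, against 2.86 with all libraries, and without HB replicate 1 at 1.81. The values of Hoxb8 and Hoxd4 turned on the few counts in ES. Without ES replicate 1 they were 2.79 and 1.71 and were not called, and without ES replicate 2 they were 7.45 and 4.65. Hoxb8 was also lost without HB replicate 2 (3.38) and Hoxd4 without HB replicate 1 (2.38). Among the calls that were kept, the log2 change of Hoxb3 was 5.16 and 7.64, of Hoxb2 8.01 and 5.54 and of Hoxb1 9.58 and 4.99 without ES replicate 1 and 2, respectively.

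From HB to HE1 the calls of Hoxb9, Hoxb5, Hoxb4 and Hoxb1 were kept. Without HE1 replicate 1 the log2 changes were smaller, with 4.17 for Hoxb9 (adjusted p = 0.00689), 2.10 for Hoxb5 (adjusted p = 0.0234) and 1.55 for Hoxb4 (adjusted p = 0.0263), while Hoxb8 (2.17), Hoxd8 (1.12), Hoxd3 (1.14) and Hoxd4 (1.39) were no longer called (adjusted p of 0.0992, 0.0662, 0.236 and 0.114). Without HB replicate 1 the calls of Hoxb8 (2.40), Hoxd8 (2.02) and Hoxd4 (2.65) were lost, and without HB replicate 2 there were 5 members called in all, which no longer included Hoxb8 (3.49), Hoxd3 (1.65) and Hoxd4 (2.13). From HE1 to HP the calls of Hoxb5, Hoxb4 and Hoxb3 were kept, with -2.51, -1.76 and -2.57 without HE1 replicate 1. In that fit Hoxb9 (-1.97), Hoxb7 (-2.84) and Hoxd9 (-1.22) were lost, Hoxb2 was still called at -1.82, and Hoxd8 and Hoxd1 were called higher in HP. Without HP replicate 1 the calls of Hoxa13 (-3.88), Hoxb9 (-2.99), Hoxb8 (-3.80), Hoxb7 (-4.21), Hoxb2 (-2.71) and Hoxd9 (-2.35) were lost with changes about as large as before or larger, and without HP replicate 2 those of Hoxb9 (-2.39), Hoxb7 (-4.11) and Hoxd9 (-1.53). Hoxd9 was also lost without any 1 of the ES and HB libraries, which are not part of this comparison, at adjusted p of 0.0615 to 0.0641 with its change at -1.87 to -1.85.

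From HE1 to HE2 both calls lay near the threshold. Without any 1 of the ES and HB libraries, which do not enter this comparison, Hoxa13 kept its change (-2.78 to -2.76) at adjusted p of 0.0553 to 0.0586. It was also lost without HE1 replicate 2 (-3.02) and without HE2 replicate 2 (-1.97, adjusted p = 0.18), and was -4.85 without HE2 replicate 1. Hoxd11 was lost without each of the 8 libraries of the stages other than HP, at adjusted p up to 0.198. Without HE2 replicate 1 there were 8 members called lower, among them Hoxb9, Hoxb8, Hoxb4 and Hoxb3, where 14.3% of all genes were called in place of 8.65%. Without HE1 replicate 1 Hoxd8 and Hoxd1 were called higher, where 17.2% of all genes were called. Between HE2 and HP, edgeR called 0 genes, with 670 higher (2.97%) and 1113 lower (4.93%) at an unadjusted p under 0.05 of the 22596. Of the members, 1 (Hoxd11) was higher and 5 (Hoxb5 to Hoxb2 among them) were lower at that level. DESeq2 called 301 genes (1.33%), among them Hoxb5 as lower, and limma-voom called 62 (0.274%) and no HOX member.

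The level of HOXB was set beside that of the endothelial markers in each library. The marker sum was 352 and 368 CPM at ES, 294 and 263 at HB, 2983 and 1734 at HE1, 1892 and 1330 at HE2, and 783 and 719 at HP. In ES this sum was almost all Kit and Pecam1 (168 and 161 CPM on average), which are not limited to endothelium, and Cdh5 went from 0.666 CPM in ES to 98.4 in HB, Tek from 30.2 to 59.0 and Sox17 from 0.236 to 13.5. Without Kit, which was also used for the sorts, the sum was 188 and 195 CPM at ES, 220 and 194 at HB, 2837 and 1661 at HE1, 1662 and 919 at HE2, and 420 and 468 at HP. Between the 2 libraries of a stage, the HOXB sums had the same order as the sum without Kit in every stage but HB. With Kit in the sum, HP went the other way as well (783 and 719 CPM of markers, HOXB at 2.9 and 3.27). HOXD in HP was at 9.90 and 8.52 with a marker sum below both HE1 libraries. The sum of the 5 mesenchyme and smooth muscle markers was 72.6 and 67.4 CPM at HB, 829 and 1630 at HE1, 953 and 616 at HE2, and 1146 and 553 at HP. In HE2 and HP it was higher in replicate 1, as HOXD was, and in HE1 it was higher in replicate 2, unlike HOXD. The part of either kind of cell in the HOX levels was not tested.

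**Figure D4:**
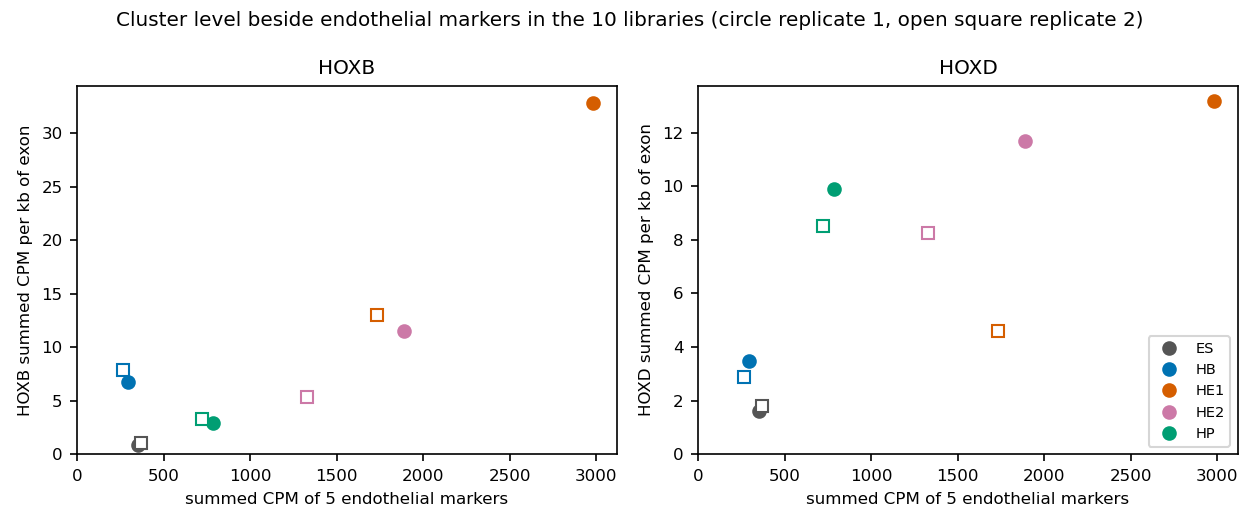
Summed CPM per kb of exon of HOXB and of HOXD against the summed CPM of 5 endothelial markers in the 10 libraries, coloured by stage, with replicate 1 as a circle and replicate 2 as an open square. HE1 replicate 1 is at the upper right in both panels (2983 CPM of markers), and the HP libraries are low for HOXB but high for HOXD.

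Genes that are not members but lie between the first and last member of a cluster number 46, of which 10 passed the filter. Of these 10, 3 rose and 2 fell from ES to HB (all genes, 11.5% and 17.3%), and 5 rose from HB to HE1 (12.7%). From HE1 to HE2 1 fell (5.39%), and from HE1 to HP 2 fell (11.2%). Gm28230 is among those that rose from ES to HB and from HB to HE1. It shares 2225 exon bases with Hoxd3 and 1154 with Hoxd4 on the same strand, so in the counts its rise is not separate from theirs. Gm53, a gene between Hoxb13 and Hoxb9, had 15.2 and 17.4 CPM at ES, 0.463 and 0.225 at HB, 17.0 and 14.7 at HE1, 6.95 and 1.21 at HE2, and 2.24 and 2.73 at HP. It fell by 5.58 on the log2 scale from ES to HB (adjusted p = 0.000205) and rose by 5.53 from HB to HE1 (adjusted p = 0.000425), with its 2 HE1 libraries closer to each other than those of the HOXB members. Mir196a-1, which lies between Gm53 and Hoxb9, had 77 and 44 counts in ES, 0 and 1 at HB and 26 and 14 at HE1, and was called in the same directions. Hoxb3os, antisense to Hoxb3 and Hoxb2, had 0.018 and 0.057 CPM at ES, 9.75 and 7.49 at HB, 10.9 and 7.70 at HE1, 3.81 and 1.65 at HE2, and 1.00 and 1.14 at HP. Its exons cover 52.9% of those of Hoxb3 and 27.3% of those of Hoxb2 on the other strand, and the libraries were counted by strand. Hoxd3os1, antisense in HOXD, had 0 counts in ES and rose from HB (0.099 and 0.028 CPM) to HE1 (0.967 and 0.330). Without each library in turn, 4 of the 5 calls from ES to HB were kept, but only that of Gm53 among the 5 from HB to HE1. Mir196a-1 and Hoxd3os1 were then lost without either HB library or HE1 replicate 1. From HE1 on, the fall of Hoxb3os to HP was kept, whereas its fall to HE2 and that of Gm53 to HP were lost without some library.

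The 2 nearest tested genes on each side of each cluster were 16 in all, of which 3 rose and 4 fell from ES to HB (all genes, 11.5% and 17.3%), 3 rose and 3 fell from HB to HE1 (12.7% and 8.19%), 0 rose and 2 fell from HE1 to HE2 (3.26% and 5.39%) and 0 rose and 5 fell from HE1 to HP (5.35% and 11.2%). All 7 calls from ES to HB were kept without any 1 library, as were 4 of 6 from HB to HE1, 0 of 2 from HE1 to HE2 and 1 of 5 (Skap1) from HE1 to HP. Evx1, a homeobox gene of the primitive streak next to Hoxa13, had 0.514 and 0.344 CPM at ES, 107 and 111 at HB, and 1.01 and 2.15 at HE1. Its antisense gene Evx1os had 33.7 and 39.7 CPM in HB and at most 1.32 in any library of another stage. Calcoco2, beyond Hoxb13, had 34.6 and 36.8 CPM at ES and at most 1.68 in any other library, in HE1 replicate 2, without which its change from HE1 to HP was -0.10 in place of -2.97. Skap2, on the other side of HOXA, an adaptor protein of blood cells, was called higher from HB to HE1, though not without HE1 replicate 1 (0.69) or HB replicate 2, and had 51.4 and 50.5 CPM in HP.

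The TALE proteins (MEIS, PBX and PKNOX), with which HOX proteins bind DNA, are encoded by 9 genes, all of which were tested. From ES to HB 6 of them rose, among them Meis2, Meis3, Pbx2, Pbx3 and Pknox2, and Pbx4 fell, where 28.8% of all genes were called. From HB to HE1, 1 rose (Meis1) and 3 fell (all genes, 20.9%). Meis1 rose, and Meis2 and Pknox2 fell, both from HE1 to HE2 (all genes, 8.65%) and from HE1 to HP (16.5%). Meis1 had 4.66 and 3.55 CPM in HB, 53.0 and 35.1 at HE1, 84.4 and 141 at HE2, and 96.3 and 91.2 at HP, and rose by 3.43 on the log2 scale from HB to HE1 (SE 0.34, adjusted p = 6.85e-05) and by 1.09 from HE1 to HP (SE 0.30, adjusted p = 0.0234), the second of which was lost without HE1 replicate 2 (0.82) or either HP library. Of the other calls of this list, those of Pbx4 from ES to HB, Meis3 and Pknox2 from HB to HE1 and all 3 from HE1 to HE2 were lost without some library. Pbx2 went from 38.1 and 36.8 CPM at ES to 91.0 and 106 at HB. Pbx3 had 93.9 and 99.4 CPM in HB and 43.2 and 27.8 at HE1, and fell between them by 1.45 (SE 0.20, adjusted p = 0.000462).

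Of 18 regulators of HOX clusters, 3 rose (Cdx2, Cbx2 and Cyp26a1) and 2 fell (Eed and Rarg) from ES to HB, a share close to the 28.8% of all genes that were called. From HB to HE1, 2 fell (Cbx2 and Cyp26a1; all genes, 8.19% lower), from HE1 to HE2, 3 fell (Cdx2, Cyp26a1 and Rara; all genes, 5.39%), and from HE1 to HP, 4 fell (Cdx2, Cyp26a1, Rara and Rarg; all genes, 11.2%). Cdx2 had 38 and 174 counts in HE1, and without HE1 replicate 2 its changes from HE1 to HE2 and to HP were -1.82 and -1.98 and were not called. The calls of Cdx2 and Cbx2 from ES to HB, of Cyp26a1 from HB to HE1 and from HE1 to HE2, and of Rarg from HE1 to HP were also lost without some library. Cyp26a1, the enzyme that breaks down retinoic acid and is itself induced by it, had 1.70 and 1.78 CPM at ES, 206 and 222 at HB, 32.3 and 45.7 at HE1, 11.8 and 1.33 at HE2, and 1.23 and 2.51 at HP. Rarg, a retinoic acid receptor, went from 109 and 108 CPM at ES to 23.0 and 23.9 at HB. Eed, a Polycomb subunit, had 166 and 164 CPM at ES and 66.8 and 64.9 at HB, and Cbx2, another one, had 34.6 and 36.9 at ES, 69.7 and 75.7 at HB, and 34.5 and 33.0 at HE1. Kmt2a, Men1, Ezh2, Suz12, Ring1, Rnf2, Bmi1, Pcgf2, Aldh1a2, Rarb, Cdx1 and Cdx4 were not called in any of the 5 comparisons.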

How the data were processed

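Reads of nuclear RNA had been cleaned by the authors with Trimmomatic and RiboDetector, placed on mm10 by HISAT2 (v2.2.1) and counted by featureCounts (v2.0.1). The deposited tables hold raw counts per Ensembl gene (fragments over exons), per the file headers by strand in reverse mode, where a fragment lying over several genes adds 1 to each. The authors also deposited an expression score per stage (the mean of the log2 CPM, taken back to the linear scale) for 15686 genes, of which 24 are HOX members; it was used for their symbols only. Its averages over libraries allow no test. No column of samples was left out (0).

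Counts were analysed in R (v4.3.3) with edgeR (v4.0.16). Of 55487 genes, 22596 passed filterByExpr with the stages as groups, and libraries were scaled by TMM. All 10 libraries entered a quasi-likelihood fit that had no term but the stage (5 residual degrees of freedom), and p-values were adjusted over all genes tested by the Benjamini-Hochberg method. SE is the size of the log2 change divided by the square root of F. Depth was 24920434 to 58782055 counts per library, and a count of 0 was taken to allow 3 counts. Ratios of few counts have exact 95% intervals. Levels of different genes were compared per kb of exon.

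Alternatives were limma-voom (v3.58.1), DESeq2 (v1.42.0), library totals as scale, no filter, only the 4 libraries compared, a term for the replicate number, a 4-fold limit, leaving out members that share 10% or more of their exons, and each library left out in turn, which was applied to the other gene lists only after their values had been seen. The model was also run on simulated counts, in which only genes above a limit on the mean count were changed. That run does not cover the calls of members with few counts, and no result above rests on it. Positions and motifs were read with Python (v3.11.15), and promoters and miRNAs came from RefSeq.

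The HOX genes were taken up, and the gene lists drawn up, with earlier results of these data known. Values in every library are given for members called in some comparison with a mean of at least 9 CPM in some stage, and for the member with the highest level per kb in each cluster and stage, besides those said to be singled out afterwards. For each other list, up to 4 called genes with the highest mean CPM are described. The values of 1 member and of 1 gene of another list are not reported here, though both stay in the counts and sums. Whether the libraries of a stage came from separate cultures is not given in the labels, and none were identical or within counting error of each other.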

Additional observations from a re-analysis of the deposited data

How the results depend on the processing

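None of the 37 calls of HOX members changed direction under any alternative. All 37 were kept with total counts or no filter, 35 with limma-voom (Hoxd3 was lost from ES to HB and from HB to HE1) and 35 of 36 with DESeq2 (Hoxc12 was lost from ES to HB, and Hoxd11 from HE1 to HE2 had no adjusted p). With only the 4 libraries compared, 34 of 36 were kept, without Hoxa13 from HE1 to HE2 and Hoxd9 from HE1 to HP. The number of members called from HE1 to HE2 was 2, and became 14 with no filter (9.78% of all genes called, against 8.65%), 7 with limma-voom (9.28%), 6 with DESeq2 (11.5%), 0 with only the 4 libraries compared (2.82%) and 1 without members that share exons. From HE2 to HP the number was 0, and became 5 with no filter (1.37%) and 1 with DESeq2 (1.33%). In these cases the cause was not tested. Leaving out each library in turn gave 10 to 16 calls from ES to HB, 5 to 11 from HB to HE1, 0 to 8 from HE1 to HE2, 0 to 2 from HE2 to HP (2 without HE2 replicate 2) and 4 to 11 from HE1 to HP (4 without HP replicate 1). With a replicate block 1 member was called from HE1 to HE2 in place of 2, since Hoxd11 was lost (6.27% of all genes called, against 8.65%). Of the 37 calls 36 were kept, and Hoxb6 and Hoxd1 were called in addition from HE1 to HP (14.3% of all genes, against 16.5%). The replicate numbers were not taken as pairs, since the differences between replicate 1 and 2 correlated between stages at -0.55 to 0.34 across 15219 genes. The filter on low counts left out 14 of the 39 members, and with no filter some of them were called. Hoxa10 and Hoxc5 were lower from HE1 to HE2 (9.78% of all genes called), and Hoxa10 and Hoxc8 from HE1 to HP (12.4%). In HE1 replicates 1 and 2 the counts were 3 and 41 for Hoxa10, 4 and 14 for Hoxc5, and 2 and 10 for Hoxc8. Most of these counts thus lie in replicate 2, which had more of the markers of other cell types.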
